A study of Mus musculus with 36 samples.

Results

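The transcription factor genes of the paired box (Pax) and Zic families described here are 9 in number, and were followed in embryonic stem cells (ESC) of the mouse and in neural precursor cells (NPC) made from those: Pax2, Pax3, Pax6, Pax7, Pax8, Zic1, Zic2, Zic4 and Zic5. They were chosen by name as neural patterning factors, with earlier results of these data known. They are 9 of the 51734 gene symbols in the count table. All 9 had enough counts to be tested. The study asked which transcripts depend on the H3K4 methyltransferases MLL3 and MLL4 and on MLL2 when ESC of the line E14, an established mouse line, are turned into neural cells with retinoic acid. Messenger RNA was sequenced from 6 groups of 3 libraries: wild type (WT), MLL3/4 dCD (dCD, in which MLL3 and MLL4 are without catalytic activity) and MLL2 dTAG (MLL2dTAG, in which MLL2 carries a degron). ESC and NPC were sequenced for each.

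The compound dTAG-13 triggers degradation of proteins that carry the dTAG degron. The labels list it for all 18 libraries, WT and ESC included, and list retinoic acid (RA) in addition for NPC, so no contrast here isolates the compound. In the differentiation, 2 µM dTAG-13 was given from day 1 and NPC were collected on day 4, and how long the ESC were treated is not given in the sources used here. Each genotype is its own cell line, so the edit and other differences between lines cannot be told apart. The labels do not say whether the 3 libraries of a group came from separate cultures, and p-values therefore measure the spread between these libraries, which may be technical.

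Pax proteins bind DNA through a paired domain, and Zic proteins through zinc fingers related to those of the Gli factors. In the embryo the neural tube is divided by such factors along its dorsoventral and rostrocaudal axes. Pax3 and Pax7 mark its dorsal part, Pax6 is found in ventral and intermediate progenitors and in the forebrain and eye, Pax2 and Pax8 take part in the midbrain-hindbrain region and in interneurons, and the Zic genes are active in the dorsal neural plate, neural tube and cerebellum. Several members also act outside the nervous system: Pax2 and Pax8 in the kidney, Pax3 and Pax7 in somites and muscle, Pax6 in the pancreas, and Zic2 and Zic5 in pluripotent cells. MLL2 has a CXXC domain, a zinc finger that binds unmethylated CpG, and for this reason the CpG content of the members' promoters is given before their expression.

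RefSeq promoters (build GRCm38.p6) were at hand for 7 members, and none was found in that table for Pax3 and Zic2. The sequence in the 250 bases before the transcription start was read for each, and all 32851 mouse promoters of the table had a median of 6 CpG in this window. Zic1 had the most, 27, more than 91.4% of the promoters, and the Pax2 start that lies nearest to the annotated gene start without touching an exon had 20. Both Pax6 starts had 15, the Pax7 start 13, Zic5 11, Pax8 6 and Zic4 4, and the other Pax2 starts had 5 and 25. The Pax7 and Zic4 windows, the Pax6 window from 105682213 and the Pax2 window with 25 CpG lie wholly in annotated exons and are not printed. The Zic4 window, from 91368722, lies inside the gene, whose annotated start is 91362413, so its count does not describe that start. The sequences of Zic1, Pax2, Zic5 and Pax8 are printed because Pax2 and Pax8, close paralogs, and Zic1 and Zic5 responded differently in the 2 edited lines, so they were chosen with their response known, and no relation of CpG content to response was tested. Each runs 5′ to 3′ on the strand of its gene, CpG is in capitals, and bases that belong to an annotated exon were left out, which shortens Zic1 to 208 bases with 26 CpG and Zic5 to 231 bases.
Zic1 promoter, chr9:91365811-91366018, minus strand: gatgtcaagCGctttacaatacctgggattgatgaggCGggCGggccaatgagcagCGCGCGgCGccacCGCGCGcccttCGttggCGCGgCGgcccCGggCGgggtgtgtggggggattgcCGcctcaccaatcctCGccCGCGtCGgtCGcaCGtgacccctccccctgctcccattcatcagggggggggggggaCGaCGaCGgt
Pax2 promoter, chr19:44755502-44755751, plus strand: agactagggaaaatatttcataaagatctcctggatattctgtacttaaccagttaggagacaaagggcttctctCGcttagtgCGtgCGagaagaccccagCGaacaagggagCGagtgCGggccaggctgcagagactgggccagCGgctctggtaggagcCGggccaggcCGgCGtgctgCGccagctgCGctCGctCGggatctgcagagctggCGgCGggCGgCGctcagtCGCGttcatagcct
Zic5 promoter, chr14:122465678-122465908, minus strand: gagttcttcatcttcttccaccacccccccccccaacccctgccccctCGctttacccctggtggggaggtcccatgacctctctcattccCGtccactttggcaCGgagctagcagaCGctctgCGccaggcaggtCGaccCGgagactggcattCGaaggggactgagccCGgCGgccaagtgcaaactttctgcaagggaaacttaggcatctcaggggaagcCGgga
Pax8 promoter, chr2:24475600-24475849, minus strand: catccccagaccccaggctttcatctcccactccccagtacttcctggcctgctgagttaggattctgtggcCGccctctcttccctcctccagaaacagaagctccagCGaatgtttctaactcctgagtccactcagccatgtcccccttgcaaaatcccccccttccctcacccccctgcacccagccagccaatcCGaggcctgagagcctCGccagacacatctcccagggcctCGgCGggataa

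Motifs were searched in the full 250 bases on both strands, and a match describes letters, not a bound site. The GC box GGGCGG, present in 32.7% of all promoters, was found in those of Zic1, Pax2 and Pax8. The CCAAT box CCAAT, present in 33.9%, was found in those of Zic1 and Pax8. The retinoid receptor half-site AGGTCA, present in 14.0%, was found in that of Zic5. The E-box CANNTG, present in 66.2%, was found in those of Zic1, Pax2 and Zic5. The TATA box TATAAA, present in 12.4%, was found in none of the 4. The GC box itself contains a CpG, so matches to it follow CpG content.

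Pax2 lies on chromosome 19 from 44756045 to 44837871, Pax3 on chromosome 1 from 78101267 to 78197134, Pax6 on chromosome 2 from 105668900 to 105697364, Pax7 on chromosome 4 from 139737062 to 139833528 and Pax8 on chromosome 2 from 24420560 to 24475599 (GRCm38, GENCODE vM21). The Zic genes stand in pairs on opposite strands. Zic1 lies on chromosome 9 from 91358058 to 91365810 on the minus strand and Zic4 from 91362413 to 91389348 on the plus strand, and their annotated exons overlap. Zic2, from 122475435 to 122479852 on chromosome 14, and Zic5, from 122456795 to 122465677, point away from each other, with starts 9758 bases apart and no overlap. The kit marks strand, but the strand setting of the counting is not given in the sources used here. Without it, reads of Zic1 and Zic4 in their shared stretch could not be told apart, and the same holds for Pax8 and the noncoding gene Gm13415, which had at most 18 counts in a library.

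Libraries held 19.4 to 46.0 M (mega) counts. A count of 3, the limit that a count of 0 allows, equals 0.0652 to 0.154 counts per M counts (CPM) in a single library. Neural progenitor markers (6 genes) summed to 122 to 136 CPM in ESC WT and 193 to 211 in NPC WT. In NPC WT 5 of them were called higher and none lower, where 39.1% of all genes were higher and 40.4% lower. Nes (63.6 and 91.2 CPM) and Msi1 (60.1 and 102 CPM) gave most of both sums. Sox1, at 3.05 and 3.10 CPM, was not called. The 6 pluripotency markers summed in ESC to 2487 CPM for WT, 2496 for dCD and 3195 for MLL2dTAG. In NPC they summed to 29.1, 41.0 and 151 CPM in the same order. Against NPC WT, 1 of them was called higher and 1 lower in dCD, and all 6 were higher in MLL2dTAG. Klf4 had 14.0 CPM in NPC WT and 26.6 in NPC dCD. Among all genes 26.7% were higher and 26.8% lower in NPC dCD, and 33.3% and 28.4% in NPC MLL2dTAG. Markers of other cell types were present in the libraries labelled NPC: 4 intermediate mesoderm genes summed to 486 CPM in WT, 224 in dCD and 405 in MLL2dTAG, chiefly Wt1, and 4 endoderm genes to 206, 178 and 500 CPM. The NPC groups are therefore called by their label, with no statement on their makeup. In such bulk libraries fewer cells of a type and less RNA per cell cannot be told apart.

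**Figure D1:**
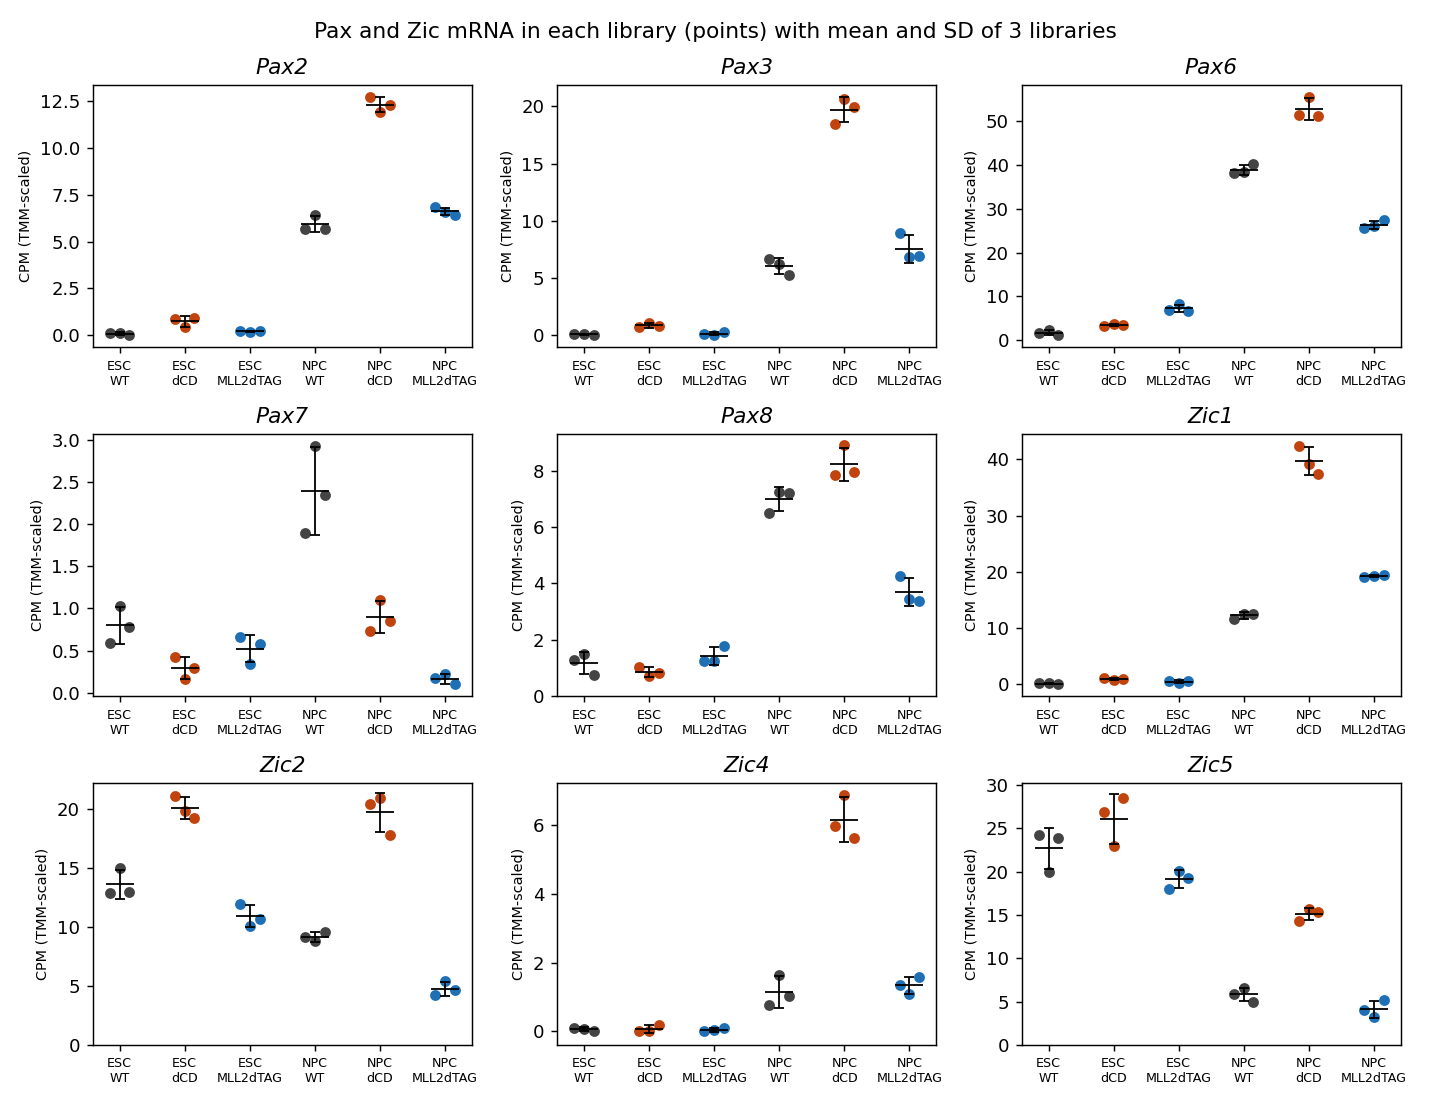
Messenger RNA level of each of the 9 genes in all 18 libraries, as CPM with library scaling (vertical axis), for the 6 groups (horizontal axis). Points are libraries, and the horizontal mark and bar are the mean and SD of 3 libraries. In NPC dCD all 3 libraries of each gene except Pax7 lie above those of the other NPC groups, although Pax8 did not pass the test against WT. Pax7 is highest in NPC WT. The share of all genes with such separation was not computed.

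The first comparison asked what differentiation did to the family in WT. All 9 genes changed, where 79.5% of the 20511 genes tested did, by the edgeR quasi-likelihood test at a Benjamini-Hochberg adjusted p under 0.05, the rule for a call throughout. The 5 Pax genes, Zic1 and Zic4 rose (39.1% of all genes did) and Zic2 and Zic5 fell (40.4%). The median change of the 9 was 4.40 on the log2 scale, against −0.04 over all genes tested. The gain was from near silence for Pax2, Pax3, Zic1 and Zic4: the 3 ESC WT libraries together held 6, 4, 6 and 4 counts of them.

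Zic1 had 2, 4 and 0 counts in ESC WT and 366, 471 and 449 in NPC WT. The log2 change was 7.25 (SE 0.26), and the ratio of levels was 160, with a 95% counting interval of 73.3 to 437. Pax3 went from 2, 2 and 0 counts to 209, 235 and 189, a log2 change of 6.78 (SE 0.37). Pax2 went from 2, 4 and 0 counts to 179, 241 and 204, a log2 change of 6.21 (SE 0.31). Every NPC library was above every ESC library for these genes, and the size of the gain rests on a few ESC counts: without ESC WT replicate 3, which had none, the log2 changes were 6.60, 6.14 and 5.56, and without replicate 2 those of Zic1 and Pax2 were 8.08 and 7.03. Zic4 rose less, from 2, 2 and 0 to 24, 62 and 37 counts (log2 change 4.40, SE 0.60, or 3.77 without ESC WT replicate 3). Intervals and the limit for 0 cover counting error only, since sequenced reads are not independent molecules.

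Pax6, Pax8 and Pax7 were already detected in every ESC WT library. Pax6 rose from 1.75 ± 0.613 to 38.9 ± 1.16 CPM (SD, n = 3), a log2 change of 4.46 (SE 0.11), and had the highest level of the Pax genes in NPC. Pax8 rose from 1.17 ± 0.383 to 7.0 ± 0.416 CPM (2.59, SE 0.19) and Pax7 from 0.799 ± 0.222 to 2.39 ± 0.516 CPM (1.55, SE 0.30). Zic5 fell from 22.7 ± 2.36 to 5.82 ± 0.791 CPM (log2 change −1.96, SE 0.11) and Zic2 from 13.6 ± 1.21 to 9.16 ± 0.410 CPM (−0.58, SE 0.09). Levels of different genes are compared per kilobase of annotated exon. On that scale Zic2 (4.72) and Zic5 (4.65 CPM per kb) led in ESC WT and did not differ beyond the spread of their libraries, and Pax8, in the next place, had 0.194. In NPC WT Pax6 (3.33) and Zic2 (3.18) overlapped, Zic1 followed with 2.15, then Zic5, Pax8, Pax2 and Pax3 between 1.19 and 0.978, each overlapping its neighbour, then Pax7 with 0.408 and Zic4 with 0.111.

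**Figure D2:**
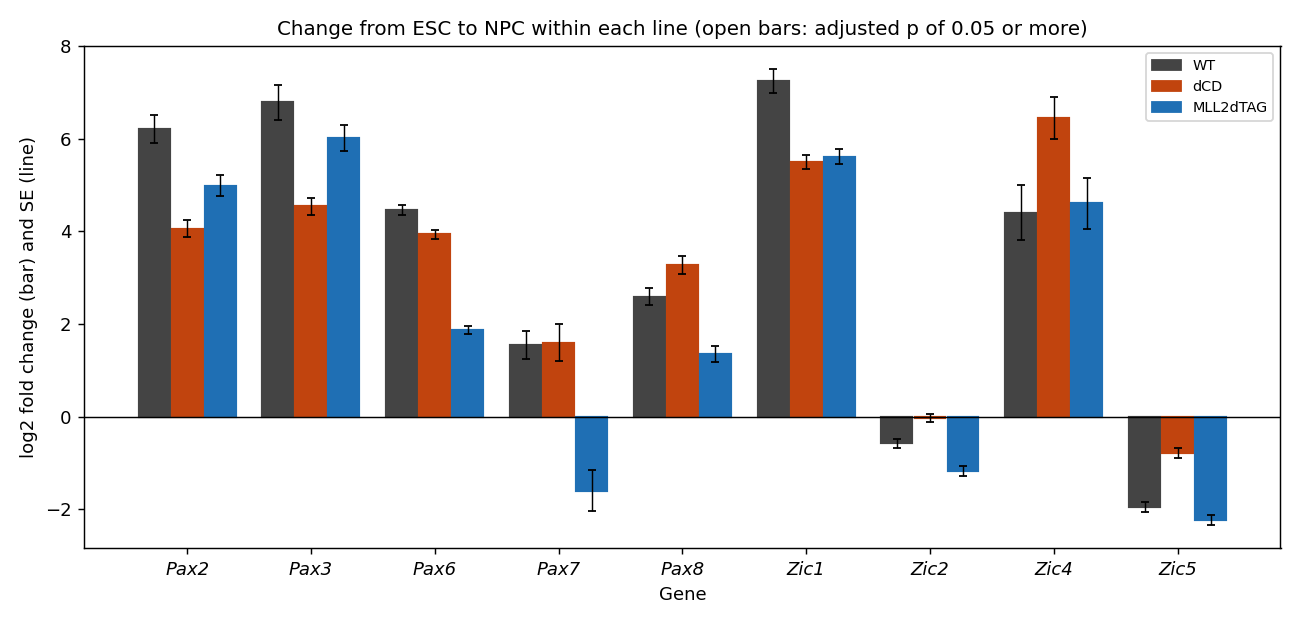
Change from ESC to NPC of each gene (horizontal axis) within WT, dCD and MLL2dTAG, as log2 fold change (bars, vertical axis) with its SE (lines). Filled bars passed the test. Pax7 rises in WT (1.55) and dCD (1.59) and falls in MLL2dTAG (−1.60), and Zic2 is near 0 in dCD.

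In dCD cells 8 of the 9 genes differed between NPC and ESC, 7 higher and 1 lower in NPC, where 77.6% of all genes were called, 38.7% higher and 39% lower. In MLL2dTAG all 9 did, 6 higher and 3 lower, where 78.2% of all genes were called, 39.9% higher and 38.3% lower. Pax7, which rose by 1.59 (SE 0.40) in dCD, fell in MLL2dTAG from 18, 11 and 22 counts to 6, 10 and 4, a log2 change of −1.60 (SE 0.44). Zic2 did not fall in dCD, with 20.1 ± 0.943 CPM in ESC and 19.7 ± 1.67 in NPC (log2 change −0.02, SE 0.08), and its sign depends on the scaling. In MLL2dTAG it fell from 10.9 ± 0.930 to 4.76 ± 0.607 CPM (−1.18, SE 0.10). The induction of Pax6 was 3.94 (SE 0.10) in dCD and 1.86 (SE 0.09) in MLL2dTAG, where the ESC level was higher and the NPC level lower than in WT. Without ESC dCD replicate 3, which held all 5 Zic4 counts of its group, the fitted gain of Zic4 in dCD went from 6.44 to 10.6, a value that then has no ESC count under it. Without ESC MLL2dTAG replicate 3 the gains in MLL2dTAG went from 6.01 to 7.66 for Pax3 and from 4.60 to 6.02 for Zic4.

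The dCD line was compared with WT at each stage to ask which members depend on MLL3 and MLL4 activity. In NPC 7 of the 9 genes were higher and 1, Pax7, was lower, where 53.5% of all genes were called, 26.7% higher and 26.8% lower. The median log2 change of the 9 was 1.11, against −0.02 over all genes tested. All 4 Zic genes were among the 7, with Zic4 raised most. In ESC 5 were higher and 1, again Pax7, was lower, where 48.3% of all genes were called, 25.7% higher and 22.6% lower.

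**Figure D3:**
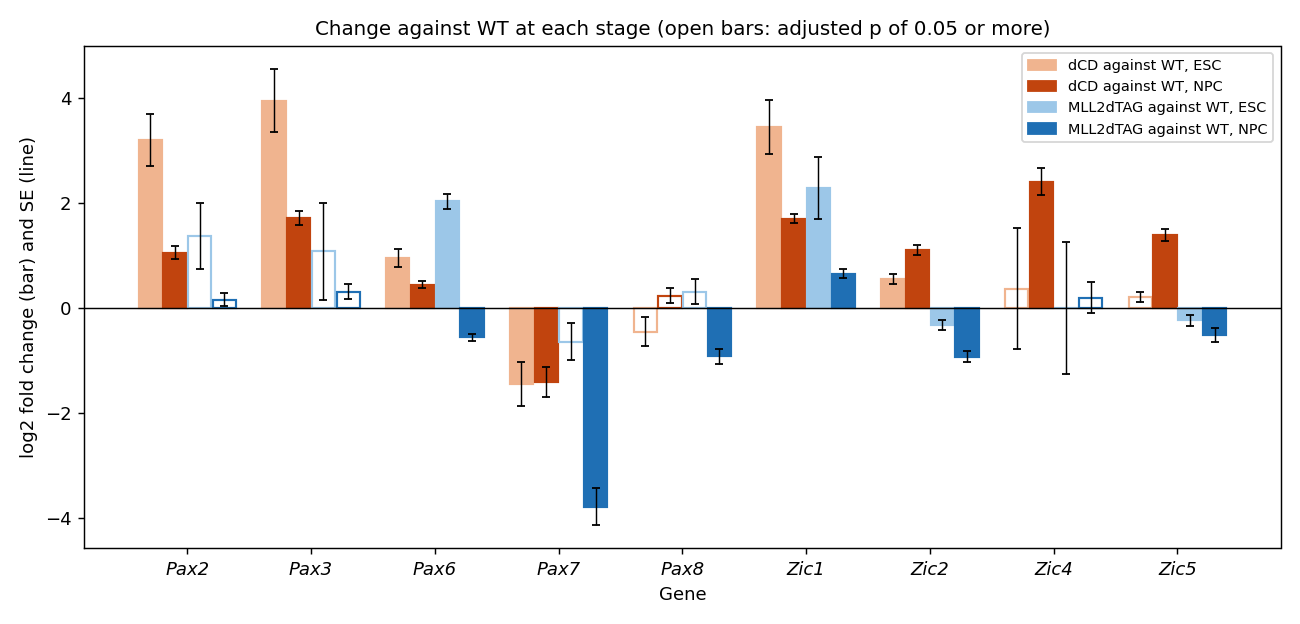
Change of each gene (horizontal axis) against WT, as log2 fold change (bars, vertical axis) with its SE (lines), for dCD and MLL2dTAG in ESC and in NPC. Filled bars passed the test. In NPC the dCD bars are above 0 for 8 genes and below for Pax7, and the deepest MLL2dTAG bar is that of Pax7 (−3.79).

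Pax3 and Pax7 are close paralogs with shared roles in the dorsal neural tube and in muscle precursors, and they went opposite ways in NPC dCD. Pax3 had 209, 235 and 189 counts in NPC WT and 603, 750 and 681 in NPC dCD. This was a rise from 6.05 ± 0.692 to 19.7 ± 1.12 CPM (log2 change 1.71, SE 0.13; edgeR quasi-likelihood, Benjamini-Hochberg adjusted p = 1.5e-13). Pax7 had 60, 110 and 84 counts in NPC WT and 24, 40 and 29 in NPC dCD, a fall from 2.39 ± 0.516 to 0.897 ± 0.188 CPM (log2 change −1.41, SE 0.28; edgeR quasi-likelihood, Benjamini-Hochberg adjusted p = 6.6e-05). The libraries of the 2 groups did not overlap for either gene. Together this took the ratio of Pax3 to Pax7 counts from 2.49 in NPC WT to 21.9 in NPC dCD.

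In NPC MLL2dTAG the ratio was higher still, 43.6, and there it came from Pax7. Pax7 had 6, 10 and 4 counts, 13.8-fold less than WT by the fit (log2 change −3.79, SE 0.36; edgeR quasi-likelihood, Benjamini-Hochberg adjusted p = 2.0e-11). Pax3 stood at 7.53 ± 1.19 CPM, a log2 change of 0.31 (SE 0.14) that missed the threshold (edgeR quasi-likelihood, Benjamini-Hochberg adjusted p = 0.052), although it passed with only the compared groups fitted (0.26), with halved counts (0.31) and without NPC WT replicate 1 (0.37) or NPC MLL2dTAG replicate 2 (0.38) or 3 (0.37). The log2 ratio of Pax3 to Pax7 was 3.01 higher in dCD and 3.53 higher in MLL2dTAG than in WT, with no overlap of libraries, and 0.52 apart between the 2 edited lines, with overlap. An exact two-sided permutation test of 3 against 3 cannot go below p = 0.1, the value for both differences from WT (0.16 after Benjamini-Hochberg adjustment over 16 ratio comparisons).

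In ESC the 2 genes also parted in dCD. Pax3 rose from 2, 2 and 0 counts to 17, 26 and 20 (log2 change 3.95, SE 0.61, or 3.31 without ESC WT replicate 3). Pax7 fell from 11, 31 and 23 counts to 10, 4 and 8 (−1.46, SE 0.42). In ESC MLL2dTAG neither passed: Pax3 had 2, 0 and 9 counts and Pax7 18, 11 and 22. Markers of other cells in which these genes act were also measured. The 6 somite and paraxial mesoderm genes summed in NPC to 13.2 CPM for WT, 4.73 for dCD and 12.4 for MLL2dTAG, with Msgn1 at 0 in every group and Meox1 giving most of the sum (9.60, 2.59 and 9.51 CPM). Of the 3 that could be tested, all were lower in NPC dCD, where Pax7 was lower too, and 1 was lower in NPC MLL2dTAG. The 5 neural crest markers summed in NPC to 18.5 to 21.6 CPM for WT, 26.4 to 27.9 for dCD and 19.6 to 20.2 for MLL2dTAG, with 2 higher and none lower in dCD, where Pax3 was higher too, and 3 higher and 1 lower in MLL2dTAG. In the same order of groups Tfap2b had 12.7, 17.4 and 11.6 CPM, Tfap2a 3.47, 6.44 and 6.04, and Sox10 0.04, 0.10 and 0.17. Of all genes 26.7% were higher and 26.8% lower in NPC dCD, and 33.3% and 28.4% in NPC MLL2dTAG. The part of these markers in the Pax3 and Pax7 values was not tested.

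Pax2 and Pax8, which act in partly redundant ways in the midbrain-hindbrain region and in the kidney, separated by genotype. Pax2 had 179, 241 and 204 counts in the WT libraries of NPC, 415, 432 and 419 in those of dCD and 230, 298 and 247 in those of MLL2dTAG. It rose in dCD from 5.93 ± 0.425 to 12.3 ± 0.405 CPM (log2 change 1.05, SE 0.12; edgeR quasi-likelihood, Benjamini-Hochberg adjusted p = 5.2e-09), while the change in MLL2dTAG was 0.16 (SE 0.13) and did not pass. Pax8 had 206, 273 and 258 counts in the WT libraries of NPC, 256, 323 and 271 in those of dCD and 144, 156 and 130 in those of MLL2dTAG. It fell in MLL2dTAG from 7.0 ± 0.416 to 3.70 ± 0.493 CPM (−0.93, SE 0.15; edgeR quasi-likelihood, Benjamini-Hochberg adjusted p = 9.6e-07). Its change in dCD was 0.23 (SE 0.14) and did not pass, except with only the compared groups fitted (0.24).

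So the ratio of Pax2 to Pax8 counts was 0.847 in NPC WT, 1.49 in dCD and 1.80 in MLL2dTAG, through a rise of Pax2 in the former and a fall of Pax8 in the latter. The log2 ratio differed from WT by 0.81 and 1.07, with no overlap of libraries (exact permutation p = 0.1 for each, the smallest possible, and 0.16 adjusted over 16 comparisons). The intermediate mesoderm marker Wt1, at 432 CPM in NPC WT, fell in both lines (log2 change −1.27 in dCD and −0.30 in MLL2dTAG), and Osr1 fell by 1.01 and 1.80. Lhx1 passed in neither. Whether these markers and Pax2 or Pax8 come from the same cells was not tested.

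In ESC dCD Pax2 rose from 2, 4 and 0 counts to 20, 10 and 25 (log2 change 3.21, SE 0.49). Leaving out ESC WT replicate 3 gave 2.55 and leaving out replicate 2 gave 4.03. In ESC MLL2dTAG it had 6, 6 and 8 counts (1.37, SE 0.63), which missed the threshold, but passed without ESC WT replicate 2 (2.20). Pax8 passed in neither ESC comparison with WT, except in dCD without ESC WT replicate 3 (−0.73). Between the edited lines it was higher in ESC MLL2dTAG, at 1.42 ± 0.307 against 0.850 ± 0.162 CPM (log2 difference 0.77, SE 0.25), a call lost without ESC dCD replicate 2 (0.65) or ESC MLL2dTAG replicate 3 (0.55).

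Pax6, the regulator of forebrain, eye and spinal cord progenitors, moved in opposite directions in MLL2dTAG at the 2 stages. In ESC it had 30, 73 and 36 counts in WT and 188, 265 and 256 in MLL2dTAG, a rise from 1.75 ± 0.613 to 7.27 ± 0.838 CPM (log2 change 2.03, SE 0.14; edgeR quasi-likelihood, Benjamini-Hochberg adjusted p = 1.6e-14). In NPC it had 1203, 1445 and 1441 counts in WT and 867, 1179 and 1050 in MLL2dTAG, a fall from 38.9 ± 1.16 to 26.4 ± 0.892 CPM (−0.56, SE 0.07; edgeR quasi-likelihood, Benjamini-Hochberg adjusted p = 1.1e-08). In dCD it was higher at both stages, with 76, 87 and 93 counts in ESC (log2 change 0.96, SE 0.17) and 1678, 2013 and 1748 in NPC (0.44, SE 0.07). None of these 4 comparisons had overlapping CPM between the groups. The 6 pluripotency markers summed to 3195 CPM in ESC MLL2dTAG against 2487 in ESC WT, with all 6 higher, and the 4 primed epiblast markers to 275 against 457 CPM, with 3 lower. Of all genes 28.7% were higher and 28.2% lower in ESC MLL2dTAG. The part of these markers in the Pax6 level was not tested.

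Zic1 and Zic4 share a locus and both contribute to the growth of the cerebellum. In NPC Zic1 had 366, 471 and 449 counts in WT, 1384, 1420 and 1277 in dCD and 640, 875 and 742 in MLL2dTAG. It rose in both lines, from 12.2 ± 0.553 CPM to 39.7 ± 2.54 in dCD (log2 change 1.70, SE 0.09; edgeR quasi-likelihood, Benjamini-Hochberg adjusted p = 4.3e-18) and to 19.2 ± 0.208 in MLL2dTAG (0.65, SE 0.09; edgeR quasi-likelihood, Benjamini-Hochberg adjusted p = 1.3e-07). It was the single member called higher in NPC MLL2dTAG. Zic4 had 24, 62 and 37 counts in the WT libraries of NPC, 195, 250 and 192 in those of dCD and 45, 49 and 61 in those of MLL2dTAG. It rose 5.30-fold in dCD (2.41, SE 0.26; edgeR quasi-likelihood, Benjamini-Hochberg adjusted p = 9.1e-10), while the change in MLL2dTAG was 0.19 (SE 0.30) with overlapping libraries.

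Zic1 counts exceeded those of Zic4 by 10.5 times in NPC WT, 6.41 times in dCD and 14.6 times in MLL2dTAG. The log2 ratio was 0.70 lower in dCD than in WT without overlap (exact permutation p = 0.1, the smallest possible, 0.16 adjusted). The difference of 0.40 between MLL2dTAG and WT had overlap. In ESC Zic1 rose from 2, 4 and 0 counts in WT to 24, 19 and 22 in dCD (log2 change 3.45, SE 0.51, 2.80 without ESC WT replicate 3 and 4.27 without replicate 2). In ESC MLL2dTAG it had 16, 4 and 18 counts (2.29, SE 0.59), where the lowest library overlapped WT and leaving out ESC WT replicate 3 or 2 gave 1.64 or 3.11. Zic4 was near silent in all 3 ESC groups, with 4, 5 and 5 counts in all, and no change was detectable at this depth.

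**Figure D4:**
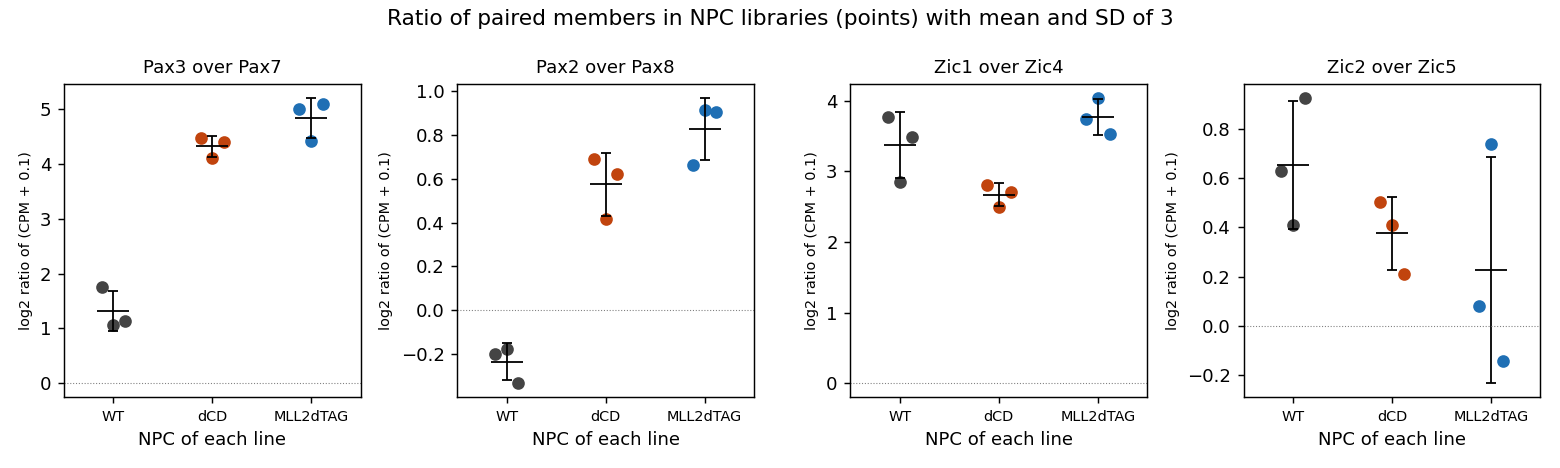
Log2 ratio of the CPM of 2 related genes, each with 0.1 CPM added (vertical axes, scaled separately), in the NPC libraries of WT, dCD and MLL2dTAG (horizontal axes). Points are libraries, and the mark and bar are the mean and SD of 3. Pax3 over Pax7 and Pax2 over Pax8 are above WT in all 6 libraries of the edited lines, Zic1 over Zic4 is lowest in dCD, and Zic2 over Zic5 overlaps between all groups.

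Zic2 and Zic5, the pair of chromosome 14, are active in ESC and in the dorsal neural tube, and mutations of Zic2 disturb forebrain division. They changed in opposite directions in the 2 edited lines. Zic2 had 289, 329 and 343 counts in the WT libraries of NPC, 665, 758 and 607 in those of dCD and 142, 245 and 178 in those of MLL2dTAG. It rose from 9.16 ± 0.410 to 19.7 ± 1.67 CPM in dCD (log2 change 1.11, SE 0.09; edgeR quasi-likelihood, Benjamini-Hochberg adjusted p = 4.7e-13) and fell to 4.76 ± 0.607 CPM in MLL2dTAG (−0.93, SE 0.10; edgeR quasi-likelihood, Benjamini-Hochberg adjusted p = 8.1e-10). Zic5 had 186, 247 and 179 counts in the WT libraries of NPC, 468, 570 and 524 in those of dCD and 134, 145 and 197 in those of MLL2dTAG. It rose in dCD (1.38, SE 0.11) and fell in MLL2dTAG (−0.52, SE 0.14), in the latter with 1 library inside the WT range.

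The ratio of the pair did not separate the NPC groups: Zic2 over Zic5 counts were 1.57 in WT, 1.30 in dCD and 1.19 in MLL2dTAG, with overlap in each comparison. In ESC Zic2 rose in dCD from 13.6 ± 1.21 to 20.1 ± 0.943 CPM (log2 change 0.55, SE 0.09) and fell in MLL2dTAG to 10.9 ± 0.930 (−0.33, SE 0.09). Zic5 in ESC stood at 22.7 ± 2.36 CPM in WT, 26.1 ± 2.87 in dCD and 19.1 ± 1.03 in MLL2dTAG. The dCD change of 0.21 (SE 0.10) missed the threshold (edgeR quasi-likelihood, Benjamini-Hochberg adjusted p = 0.077), though it passed with no filter (0.23), with halved counts (0.21) and without ESC WT replicate 1 (0.25) or ESC dCD replicate 2 (0.30). The MLL2dTAG change of −0.24 (SE 0.10) passed (edgeR quasi-likelihood, Benjamini-Hochberg adjusted p = 0.037), but not with no filter (−0.18), with DESeq2 (−0.23) or without ESC WT replicate 1 (−0.20) or 3 (−0.19) or ESC MLL2dTAG replicate 1 (−0.20) or 3 (−0.25).

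Against WT, MLL2dTAG thus had 6 of the 9 members called in NPC, 1 higher and 5 lower, where 61.7% of all genes were called, 33.3% higher and 28.4% lower. In ESC it had 4 called, 2 higher and 2 lower, where 56.9% of all genes were, 28.7% higher and 28.2% lower. The median log2 change of the 9 in NPC was −0.52, against 0.03 over all genes tested. These 2 comparisons share their WT libraries with those of dCD. The edited lines were therefore also set against each other. In NPC all 9 members were lower in MLL2dTAG than in dCD, where 55.9% of all genes were called, 24.3% lower and 31.6% higher. The differences ran from −0.90 (SE 0.12) for Pax2 to −2.38 (SE 0.40) for Pax7, with a median of −1.40 against 0.05 over all genes. The sum of the 6 neural progenitor markers was 344 CPM in NPC dCD and 243 in NPC MLL2dTAG, and that of the 4 neuron markers 285 and 167 CPM. In each list 4 genes were called lower in NPC MLL2dTAG and none higher. The neuron list summed to more in ESC WT (398 CPM) than in NPC WT (168 CPM), chiefly through Stmn2 (327 and 25.7 CPM). Its sum is therefore not a measure of neurons alone. The part of either list in the lower level of the members was not tested.

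In ESC 7 of the 9 members differed between the edited lines, 5 lower and 2 higher in MLL2dTAG, where 47.2% of all genes were called, 23.7% lower and 23.4% higher. Pax6 was higher in MLL2dTAG (log2 difference 1.08, SE 0.13), as was Pax8. Pax3 was the furthest below dCD (−2.87, SE 0.48, or −4.51 without ESC MLL2dTAG replicate 3), followed by Pax2 (−1.83, SE 0.37), Zic1 (−1.16, SE 0.33, or −0.75 without ESC MLL2dTAG replicate 2), Zic2 (−0.89, SE 0.09) and Zic5 (−0.45, SE 0.10). The order of levels per kilobase also shifted in NPC. Zic1 (6.97) and Zic2 (6.84 CPM per kb) overlapped at the top in dCD, above Pax6 with 4.51, while in MLL2dTAG Zic1 (3.38) stood above Pax6 (2.26) and Zic2 (1.65). Pax7 was last in both, with 0.153 and 0.0286, below Zic4.

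Whether an edit acted differently at the 2 stages was tested as an interaction, the log2 change against WT in NPC minus that in ESC. For dCD 6 members passed, 2 higher and 4 lower, where 42.9% of all genes did, 20% higher and 22.9% lower: Zic5 (1.17, SE 0.15) and Zic2 (0.55, SE 0.13) gained more in NPC, and Pax2 (−2.15, SE 0.54), Pax3 (−2.24, SE 0.70), Zic1 (−1.75, SE 0.58) and Pax6 (−0.52, SE 0.19) gained more in ESC. Of the last 4, Pax2, Pax3 and Zic1 start from few ESC WT counts, and Pax6 from 139. Without ESC WT replicate 3 Pax3 (−1.61) and Zic1 (−1.10) no longer passed and Pax2 was −1.50. Without ESC WT replicate 2 Pax2 was −2.98, Zic1 −2.58 and Pax6 −0.89. Pax6 no longer passed without ESC WT replicate 1 (−0.47) or 3 (−0.28) or ESC dCD replicate 2 (−0.49). For Pax8 (0.69, SE 0.30) the call was missed, but made without ESC WT replicate 3 (0.96) or ESC dCD replicate 1 (0.83). Zic4 (2.04, SE 1.34) passed without ESC dCD replicate 3 (6.23), when its ESC dCD group had no count.

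For MLL2dTAG 5 members passed, all lower in NPC relative to ESC, where 49% of all genes did, 22.6% lower and 26.4% higher: Pax7 (−3.15, SE 0.53), Pax6 (−2.59, SE 0.16), Zic1 (−1.63, SE 0.62), Pax8 (−1.24, SE 0.27) and Zic2 (−0.60, SE 0.14). Zic1 was −2.46 without ESC WT replicate 2 and was lost without ESC WT replicate 3 (−0.98), ESC MLL2dTAG replicate 1 (−1.32) or 3 (−1.42) and with halved counts (−1.57). Zic5 (−0.28, SE 0.17) missed, but passed with no filter (−0.37) and without NPC MLL2dTAG replicate 3 (−0.48).

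Other Pax genes were measured too. Pax4, of the endocrine pancreas, had 0 to 2 counts in a library and could not be tested. Pax1, a gene of the sclerotome and thymus, went from 0, 2 and 4 counts in NPC WT to 40, 51 and 32 in NPC dCD (log2 change 4.30, SE 0.77) and had 4, 0 and 2 in NPC MLL2dTAG. Pax9, its close paralog, was 1.35 (SE 0.42) higher in NPC dCD and 1.58 (SE 0.41) higher in NPC MLL2dTAG. Pax5, of B cells and the midbrain-hindbrain region, fell by 0.47 (SE 0.17) in NPC dCD and did not pass in NPC MLL2dTAG (−0.12, SE 0.16). In ESC dCD Pax5 fell by 1.38 (SE 0.38), and from ESC to NPC in WT it rose by 2.69 (SE 0.22). Pax1 and Pax9 passed in neither ESC comparison with WT.

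Pax proteins act in a network with the Eya and Dach cofactors and a family of homeobox factors. The 12 genes listed for it gave 6 higher and 3 lower in NPC dCD and 3 higher and 8 lower in NPC MLL2dTAG, with median log2 changes of 0.24 and −0.54. Over all genes tested the medians in these 2 comparisons were −0.02 and 0.03, and 26.7% were higher and 26.8% lower in NPC dCD and 33.3% higher and 28.4% lower in NPC MLL2dTAG. The shares of all genes were 25.7% higher and 22.6% lower in ESC dCD, 28.7% and 28.2% in ESC MLL2dTAG, and 39.1% and 40.4% from ESC to NPC in WT. Dach2 had 1530, 1709 and 1647 counts in NPC WT, 421, 454 and 522 in dCD (log2 change −1.78, SE 0.08) and 194, 235 and 215 in MLL2dTAG. Six6, a gene of the eye and hypothalamus, had 14, 10 and 12 counts in NPC WT, 41, 40 and 42 in dCD and 2, 0 and 0 in MLL2dTAG. Six3, of the forebrain, had no count in NPC WT, 10, 4 and 10 in dCD and 17, 14 and 14 in MLL2dTAG. In ESC the list gave 4 higher and 2 lower in dCD (Six2 1.43, SE 0.51) and 3 higher and 4 lower in MLL2dTAG (Eya1 0.94, SE 0.14; Eya2 −1.50, SE 0.36). In WT 8 rose and 2 fell from ESC to NPC, with Dach1 (6.43, SE 0.10) and Six4 (−1.38, SE 0.06) at the ends.

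Genes of the dorsal neural tube, where Pax3, Pax7 and the Zic genes are active, gave 7 of 8 that could be tested (Gdf7 could not). In NPC MLL2dTAG 4 were lower and 1 higher: Atoh1, of dorsal interneuron and cerebellar granule precursors, had 24, 26 and 20 counts in WT and 0, 2 and 2 in MLL2dTAG, and Msx2 was 0.71 (SE 0.07) higher. In NPC dCD 3 were higher and 1 lower, from Wnt3a (0.94, SE 0.32) to the roof plate factor Lmx1a (−1.20, SE 0.16). The median log2 change of the list was −1.13 in NPC MLL2dTAG, where 28.4% of all genes were lower and 33.3% higher, and 0.10 in NPC dCD, where 26.7% were higher and 26.8% lower. In ESC 5 were higher in dCD (Olig3 2.37, SE 0.46; Bmp4 0.93, SE 0.06) and 4 in MLL2dTAG (Wnt3a 2.23, SE 0.45; Msx1 0.98, SE 0.28), and none was lower. In WT 6 rose and 1 fell from ESC to NPC, with Msx1 (6.17, SE 0.15) and Bmp4 (−0.20, SE 0.07) at the ends. Of all genes 25.7% were higher and 22.6% lower in ESC dCD, and 28.7% and 28.2% in ESC MLL2dTAG. From ESC to NPC in WT 39.1% rose and 40.4% fell.

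Genes of the midbrain-hindbrain boundary, which work with Pax2, Pax5 and Pax8, gave 5 higher and none lower of 8 in NPC dCD (median log2 change 0.32) and 5 higher and 2 lower in NPC MLL2dTAG (0.89). All genes tested gave 26.7% higher and 26.8% lower in the former (median −0.02) and 33.3% and 28.4% in the latter (0.03). En1 was 2.29 (SE 0.39) and Spry1 0.13 (SE 0.05) higher in dCD, and in MLL2dTAG En2 was 1.67 (SE 0.17) higher and Lmx1b 1.30 on the log2 scale below WT. The signal of the boundary itself was scarce, with Fgf8 at 0, 4 and 0 counts in NPC WT. In ESC 3 were higher and 1 lower in dCD (Gbx2 2.35, SE 0.12; Spry1 −0.31, SE 0.06) and 3 and 3 in MLL2dTAG (Gbx2 2.73, SE 0.11; Fgf8 −2.44, SE 0.33). In WT 3 rose and 4 fell from ESC to NPC: Wnt1 had no count in ESC and 186, 346 and 261 in NPC, and Fgf17 fell most (−6.58, SE 0.20). Of all genes 25.7% were higher and 22.6% lower in ESC dCD, and 28.7% and 28.2% in ESC MLL2dTAG. From ESC to NPC in WT 39.1% rose and 40.4% fell.

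The 6 Gli and Glis genes, whose zinc fingers resemble those of Zic, gave 4 higher and 1 lower in NPC dCD (median log2 change 0.32) and 3 higher and 2 lower in NPC MLL2dTAG (0.02). The latter is near the shares of all genes, 33.3% higher and 28.4% lower, while in NPC dCD 26.7% of all genes were higher and 26.8% lower. Glis3, a gene of pancreas and kidney, had 4.45 ± 0.345 CPM in NPC WT and 18.01 ± 0.874 in dCD (log2 change 2.01, SE 0.10), and Glis2 fell by 0.24 (SE 0.04). In MLL2dTAG Glis1 was 0.91 (SE 0.37) higher and Gli1, a target of Hedgehog signalling, fell by 0.31 (SE 0.05). In ESC 3 were higher and 1 lower in dCD (Glis2 0.82, SE 0.06; Gli1 −0.28, SE 0.05) and 2 and 2 in MLL2dTAG (Glis2 1.03, SE 0.05; Gli3 −0.96, SE 0.06). In WT 2 rose and 2 fell from ESC to NPC, with Gli3 (2.53, SE 0.05) and Gli2 (−0.20, SE 0.05) at the ends. Of all genes 25.7% were higher and 22.6% lower in ESC dCD, and 28.7% and 28.2% in ESC MLL2dTAG. From ESC to NPC in WT 39.1% rose and 40.4% fell.

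The genes whose pattern was most like that of each member, out of those averaging 1 CPM or more, were found by Pearson correlation of log2(CPM + 1) over the 18 libraries. The values are a description and are dominated by the split between ESC and NPC. Zic1 was the gene most like Pax2 (r = 0.995), followed by Hoxb13 and Ppm1l, and Pax2 was among the 3 most like Zic1, after Gata3 (0.997). Unc5d, Hoxb13 and Slit3 were the closest to Pax3 (0.996, 0.991 and 0.990). The closest gene was Tbc1d19 for Pax6 (0.995), Spaca6 for Pax8 (0.987), Areg for Zic4 (0.985), Pm20d1 for Zic5 (0.982), Nup62cl for Zic2 (0.952) and Cfap54 for Pax7 (0.950). Within the family Pax2, Pax3 and Zic1 correlated at 0.989 to 0.995, Zic2 with Zic5 at 0.808, and Pax3 with Pax7, its paralog, at 0.237.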

How the data were processed

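The values are whole-number read counts for each gene symbol, as the authors deposited them, and were not normalized. HTSeq is the tool named for these libraries per the submitters' processing notes, the kit was TruSeq Stranded mRNA per the labels' protocols, and aligner, build and strand setting are not given in the sources used here. Columns were matched to samples by name, and 18 other columns of per-sample values were not used: 6 carry repeated names and 12 match no label, so 18 of the 36 samples listed were not analysed here.

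The analysis used edgeR 4.0.16 in R 4.3.3. A filter on low counts (filterByExpr, by group) kept 20511 genes. Libraries were scaled with TMM factors (0.967 to 1.05), and quasi-likelihood fits gave each group its own mean over the 18 libraries (12 residual degrees of freedom, biological coefficient of variation 4.01%). Tests were two-sided with Benjamini-Hochberg adjustment over all genes tested, and a gene was called at adjusted p under 0.05. The SE is the size of the log2 change over the square root of F. The script was tested on simulated data. CPM used the TMM-scaled totals. Intervals of count ratios are exact at 95%, and the limit for a count of 0 was 3 counts, taken in a single library. Of the counts from 1 to 10, 60.8% to 66.5% were even, so halved counts were tried as an alternative in case mates were counted separately. Differences between libraries of a group exceeded sampling noise in all 18 pairs (chi-square 2.19 to 10.5 per degree of freedom). The highest values, 10.5 and 8.38, were those of the pairs with ESC WT replicate 2, and no other pair exceeded 4.43.

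All 9 members were described in each comparison. In each related list the called gene with the highest and with the lowest change, without overlap of libraries, was named. Results of some list genes are not reported here. The members and lists were chosen with earlier results of these data known. Alternatives were other scalings, no filter, DESeq2 1.42.0, only the groups compared, a replicate block, halved counts and leaving out each library.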

Additional observations from a re-analysis of the deposited data

Results flagged for a closer look

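Each of the following differed between ESC and NPC in its change against WT by the interaction test (edgeR quasi-likelihood, Benjamini-Hochberg adjusted p under 0.05). In dCD the change was lower in NPC than in ESC for Pax2 (−2.15), Pax3 (−2.24), Pax6 (−0.52) and Zic1 (−1.75) and higher for Zic2 (0.55) and Zic5 (1.17). In MLL2dTAG it was lower for Pax6 (−2.59), Pax7 (−3.15), Pax8 (−1.24), Zic1 (−1.63) and Zic2 (−0.60), and for Pax6 the change against WT had opposite signs at the 2 stages (2.03 in ESC and −0.56 in NPC). The values for Pax2, Pax3 and Zic1 rest on 6, 4 and 6 counts in the 3 ESC WT libraries.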

How the results depend on the processing

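Of 1488 values of single members under an alternative, 1426 kept their direction and their side of the threshold, 17 lost the call, 17 gained it and 28 changed sign. All 166 counts of members called were within 1.5 times the reported count. No sign change touched a call. Zic4 in ESC MLL2dTAG against WT (−0.01) was 0.045 with no filter and 0.0056 with DESeq2 size factors. Zic2 between NPC and ESC of dCD (−0.02) was 0.078 with no filter and 0.055 with library totals. The dCD interaction of Pax7 (0.04) was −0.033 with halved counts. The causes were not tested. Leaving out single libraries gave, among results that changed sign, −0.55 to 1.64 for Pax3 in ESC MLL2dTAG, −1.33 to 0.87 for its MLL2dTAG interaction, −0.23 to 0.37 for the dCD interaction of Pax7 and −0.068 to 0.048 for Zic2 in dCD. For Zic4 it gave −3.83 to 0.92 in ESC dCD, −1.41 to 0.55 in ESC MLL2dTAG, −1.78 to 3.82 between these 2, −0.36 to 1.61 for the MLL2dTAG interaction and −0.019 to 0.56 in NPC MLL2dTAG. The members called then numbered 4 to 7 for the dCD interaction (6 with all libraries), 4 to 6 for the MLL2dTAG interaction (5) and 3 to 5 in ESC MLL2dTAG (4). Members with few ESC counts are limited by depth.

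The replicate numbers did not pair the libraries: deviations of same-numbered libraries correlated at −0.05 to 0.04, although in WT NPC and ESC each of 3 correlated best with its own number. With the replicate block the number of members called was the same in all 11 comparisons, and Zic4 in ESC MLL2dTAG was 0.0020.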
